A study of Sus scrofa with 2 samples.

Results

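The ubiquitin ligases and conjugating enzymes of biceps femoris muscle were examined in the RNA-seq libraries of abnormal and normal cloned piglets. Members were the entries for FBXO32 or TRIM63 and every entry whose deposited protein description named an E3 ubiquitin ligase, F-box protein, ankyrin repeat and SOCS box (ASB) protein, cullin, tripartite motif (TRIM) protein, kelch-like or kelch repeat and BTB protein, or ubiquitin-conjugating enzyme. This rule found 250 of the 12535 entries with reads in either library. By class they were 102 RING ligases, 54 F-box proteins, 33 kelch proteins, 17 HECT ligases, 17 conjugating enzymes (E2), 14 SOCS-box proteins and 13 cullins or cullin regulators. No entry was found for TRIM63 (MuRF1), which was not analysed here.

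The abnormal cloned group had an enlarged tongue, an umbilical protrusion and difficulty in standing and walking, and the normal cloned group did not. Muscle was taken from both on Day 1 after birth, and all animals were made by somatic cell nuclear transfer. RNA was pooled into 1 library per group, from 3 abnormal piglets and from 4 normal piglets (3 according to the sample labels). All 3 abnormal piglets and 2 of the normal piglets came from embryonic fibroblasts of 1 male Large White pig and the other 2 normal piglets from ear fibroblasts of a different male, so donor and condition were in part confounded. A difference therefore has no replicate check: what the test sets against each other is 2 libraries rather than 2 conditions.

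Ubiquitin is activated by an E1 enzyme, passed to an E2 enzyme and attached to a protein by an E3 ligase, which chooses the substrate. RING ligases bring the E2 and the substrate together, whereas HECT ligases take over the ubiquitin before they pass it on. Cullins are scaffolds on which F-box proteins (with CUL1), BTB-kelch proteins (with CUL3) or SOCS-box proteins (with CUL2 or CUL5) hold the substrate. In skeletal muscle, ligases such as FBXO32 mark proteins for the proteasome during atrophy, and several kelch proteins are needed to build or keep the sarcomere.

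The unique reads on genes summed to 6.38 M in the abnormal against 6.52 M in the normal library, and 3 reads corresponded to 0.470 and 0.460 RPM (reads per total of unique reads, without division by length). Levels are given as RPKM, the unique reads scaled to the length of the transcript and to the total of the library. An entry was called higher or lower at an FDR of at most 0.001 (Audic-Claverie test of the reads, Benjamini-Hochberg over all 12535 entries) and a log2 ratio of RPKM of at least 1 in size. Intervals in brackets after log2 ratios are 95% Wilson intervals and cover counting error only. The median log2 ratio over the 7493 genes with 10 or more reads in each library was 0.36 and not 0, so the calls are also given after rescaling by this median. Mitochondrial transcripts took 36.0% of the abnormal library (95% Wilson interval 35.98% to 36.05%) and 46.1% of the normal library (46.05% to 46.13%).

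Of the 250 ligase entries, 50 (20%) were called higher and 2 (0.8%) lower, while 12.0% of all entries were called higher and 1.45% lower. After rescaling, 28 of the 50 were still called higher and 5 entries were called lower, against 6.48% and 3.97% of all entries. The RPKM was larger in the abnormal library for 189 of the 250 entries (75.6%), and for 66.0% of all entries. The difference between these shares was not tested. Their median log2 ratio was 0.64, and that of all entries was 0.35. Of the 170 ligase entries with 10 or more reads in each library the median was 0.61, which is 0.25 above the median gene.

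By class, the share called higher ran from 15.4% to 35.7%, against 12.0% of all entries. Calls of higher expression covered 5 of 14 SOCS-box entries (35.7%), 6 of 17 HECT entries (35.3%), 7 of 33 kelch entries (21.2%), 18 of 102 RING entries (17.6%), 3 of 17 E2 entries (17.6%), 9 of 54 F-box entries (16.7%) and 2 of 13 cullin entries (15.4%). The SOCS-box count holds 2 entries of ASB5, which may not be separate genes. After rescaling, 3 SOCS-box and 3 HECT entries were called higher, when 6.48% of all entries were. Both entries called lower before rescaling were RING ligases. The median log2 ratio over all entries was 1.15 for HECT, 1.03 for kelch and 1.02 for SOCS-box entries. It was 0.80 for cullin, 0.52 for RING, 0.48 for E2 and 0.41 for F-box entries. This order depended on entries with few reads, as 12 of 33 kelch and 19 of 54 F-box entries had under 20 reads over both libraries. With 10 or more reads in each library the medians were 1.13 for HECT, 1.04 for SOCS-box and 0.73 for cullin entries. They were then 0.67 for kelch, 0.64 for F-box, 0.48 for E2 and 0.38 for RING entries, against 0.36 for all such genes. The difference between classes was not tested.

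**Figure D1:**
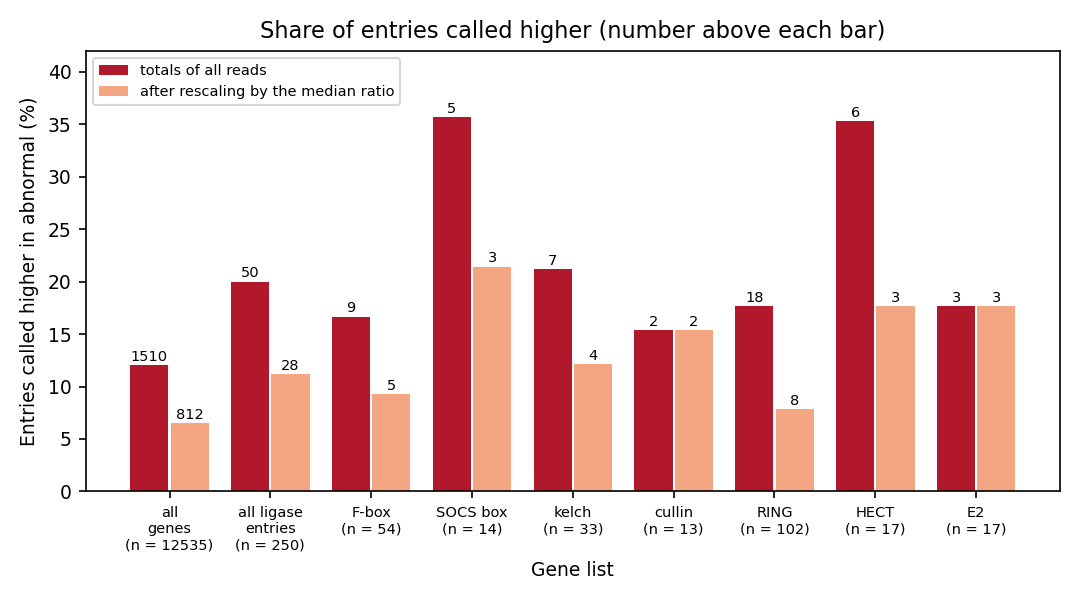
Percentage of entries called higher in the abnormal library (vertical axis) for all genes, all ligase entries and each ligase class (horizontal axis). Dark bars use the totals of all reads, light bars the values after rescaling by the median ratio, and the number of called entries stands above each bar. SOCS-box (5 of 14) and HECT entries (6 of 17) have the highest bars, and 1510 of 12535 genes give the bar on the left.

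**Figure D2:**
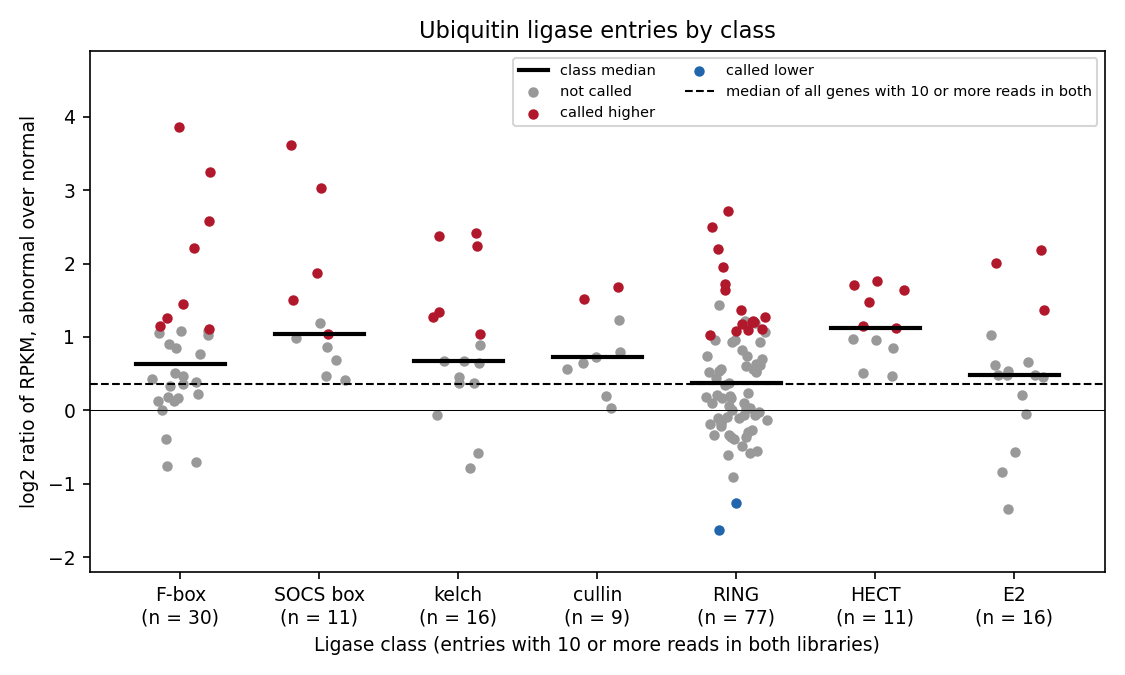
Log2 ratio of RPKM, abnormal over normal (vertical axis), of the 170 ligase entries with 10 or more reads in each library, by class. Each point is 1 entry, red where called higher, blue where called lower and grey where not called; short bars are class medians and the dashed line is the median of all such genes (0.36). All 11 HECT points and all 11 SOCS-box points lie above the dashed line.

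A list of ligases and E2 enzymes known from muscle was written with earlier results of these data known. Its counts are therefore not independent evidence of a direction. Its 51 genes were matched by 37 gene names, with 40 entries. Of these 40, 22 (55.0%) were called higher, 0 lower and 18 were not called, while 12.0% of all entries were called higher. The median log2 ratio of the 40 was 1.17. The other 210 ligase entries had 28 called higher (13.3%), 2 called lower and a median of 0.51. After rescaling, 14 of the 40 and 14 of the other 210 entries were called higher, against 6.48% of all entries.

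**Figure D3:**
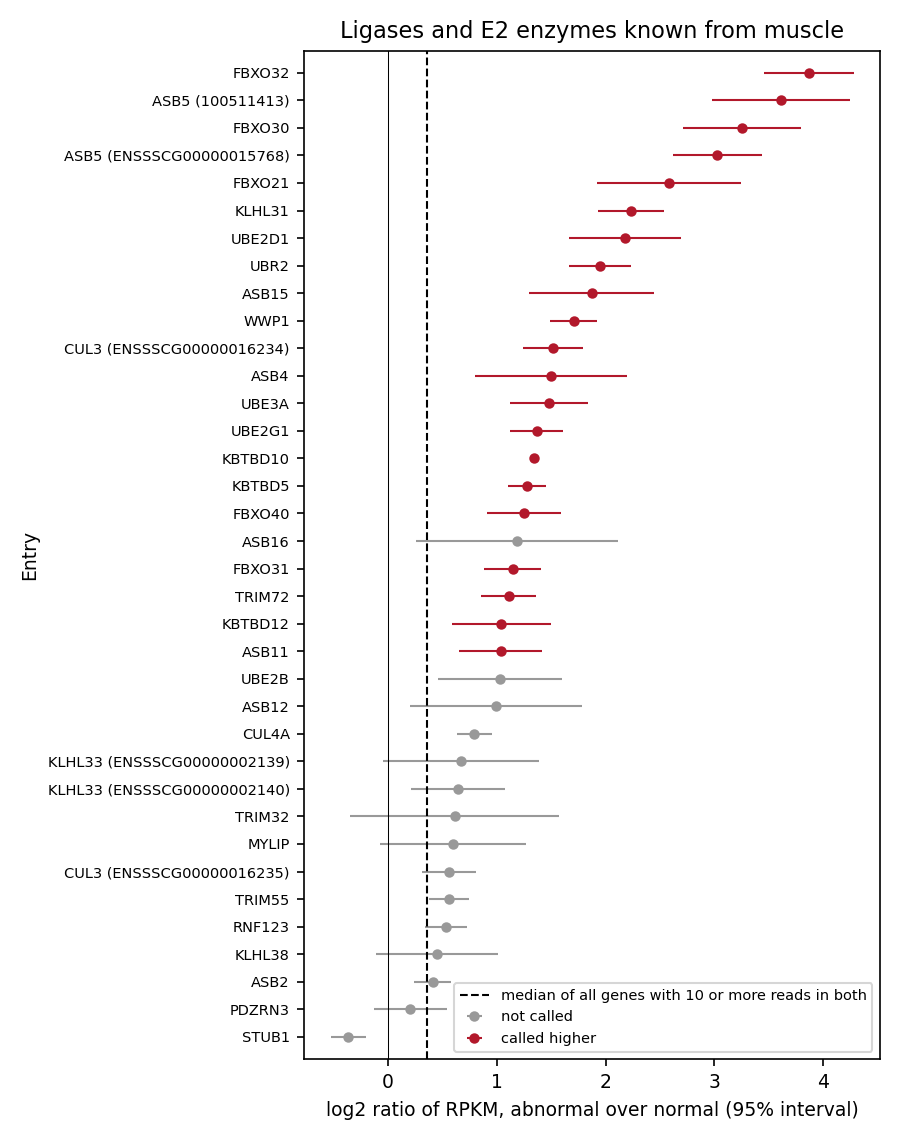
Log2 ratio of RPKM, abnormal over normal (horizontal axis), of the 36 entries for ligases and E2 enzymes known from muscle that had 10 or more reads in each library, 1 entry per line. Points are values and bars 95% Wilson intervals from counting error, in red where called higher. The values run from -0.36 for STUB1 to 3.86 for FBXO32, and the dashed line is the median of all genes (0.36).

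FBXO32 (atrogin-1), the F-box ligase used as a marker of muscle atrophy, had the largest log2 ratio of the 50 members called higher. It had 713 reads in the abnormal library against 50 in the normal one, or 105 RPKM (95% exact Poisson interval 97.4 to 113) against 7.21 RPKM (5.35 to 9.50). The intervals did not overlap, and the log2 ratio was 3.86 (3.45 to 4.28), a 14.6-fold difference that was still 3.51 on the log2 scale above the median gene. FBXO32 (gene ID 733657) lies at chr4:15473845-15503678 in Sscrofa9. Among the 54 F-box entries it ranked 1st by RPKM in the abnormal against 8th in the normal library.

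FBXO30 and FBXO21, both also described as ligases of muscle atrophy, were called higher too. FBXO30 had 280 and 30 reads, or 17.2 and 1.81 RPKM in the abnormal and normal library, a log2 ratio of 3.25 (2.71 to 3.79). FBXO21 had 123 and 21 reads, or 9.86 and 1.65 RPKM, a log2 ratio of 2.58 (1.92 to 3.24). Both were still called higher after rescaling.

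Further F-box genes were called higher with smaller ratios. FBXO40, a muscle ligase that acts on the insulin receptor substrate IRS1, had 17.5 RPKM in the abnormal against 7.35 in the normal library, a log2 ratio of 1.25 (0.91 to 1.59). FBXO31, a ligase of cyclin D1, had 29.8 and 13.5 RPKM, a log2 ratio of 1.15 (0.88 to 1.41). The F-box-like co-repressor subunit TBL1XR1 had 6.39 and 2.35 RPKM, a log2 ratio of 1.45 (0.84 to 2.05). These 3 calls were lost after rescaling. FBXO9 was the most abundant F-box gene of the normal library and was not called, with 22.5 RPKM in the abnormal against 20.6 in the normal library; its log2 ratio of 0.13 (-0.10 to 0.35) turned to -0.23 after rescaling. FBXL22, an F-box protein of the heart sarcomere, had only 9 and 14 reads and was not called.

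Of the SOCS-box proteins, which are substrate receptors with ankyrin repeats and are in part restricted to muscle, ASB5 differed most. It has 2 entries on chromosome 15 of Sscrofa9, at chr15:35532294-35537088 on the plus strand and chr15:35676901-35713159 on the minus strand, which do not overlap. The first (gene ID 100511413) had 251 reads in the abnormal library against 21 in the normal one, or 82.5 and 6.76 RPKM, a log2 ratio of 3.61 (2.97 to 4.25). The second (ENSSSCG00000015768) had 423 and 53 reads, or 53.3 and 6.53 RPKM, a log2 ratio of 3.03 (2.62 to 3.44). The folds were 12.2 and 8.15, but the entries bear the same protein name and may not be separate genes.

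ASB15, ASB4 and ASB11 were also called higher. ASB15, a muscle ASB protein, had 111 and 31 reads, or 9.21 and 2.52 RPKM, a log2 ratio of 1.87 (1.30 to 2.44). ASB4, better known from the vasculature, had 61 and 22 reads, with a log2 ratio of 1.50 (0.81 to 2.20). ASB11 had 165 and 82 reads, with a log2 ratio of 1.04 (0.66 to 1.42). Only ASB15 and the ASB5 entries among the 5 were still called after rescaling.

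ASB2, which degrades filamins during muscle differentiation, was the most abundant SOCS-box gene of the normal library and was not called. It had 53.4 RPKM in the abnormal against 40.1 in the normal library, a log2 ratio of 0.41 (0.24 to 0.58), close to the median gene. The order of the class thus differed between libraries: the ASB5 entry of 6.76 RPKM was far below ASB2 in the normal library and was above it, with 82.5 RPKM, in the abnormal library. ASB16, ASB12 and ASB18 had 29 and 13, 37 and 19, and 5 and 14 reads in the abnormal and normal library, and were not called. The entry described as ASB12 has the symbol ASB1 in the reference table, so its name is uncertain.

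KBTBD10 (also KLHL41), a kelch protein of the sarcomere whose loss causes nemaline myopathy, was by far the most abundant member. It had 15324 reads in the abnormal library against 6163 in the normal one, or 1010 RPKM (994 to 1027) against 398 RPKM (388 to 408). The log2 ratio was 1.35 (1.30 to 1.39), and after rescaling it was 0.99, just under the threshold. The RPKM of all 250 entries summed to 4194 in the abnormal against 2534 in the normal library, so this 1 gene made up the largest single part of both sums.

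**Figure D4:**
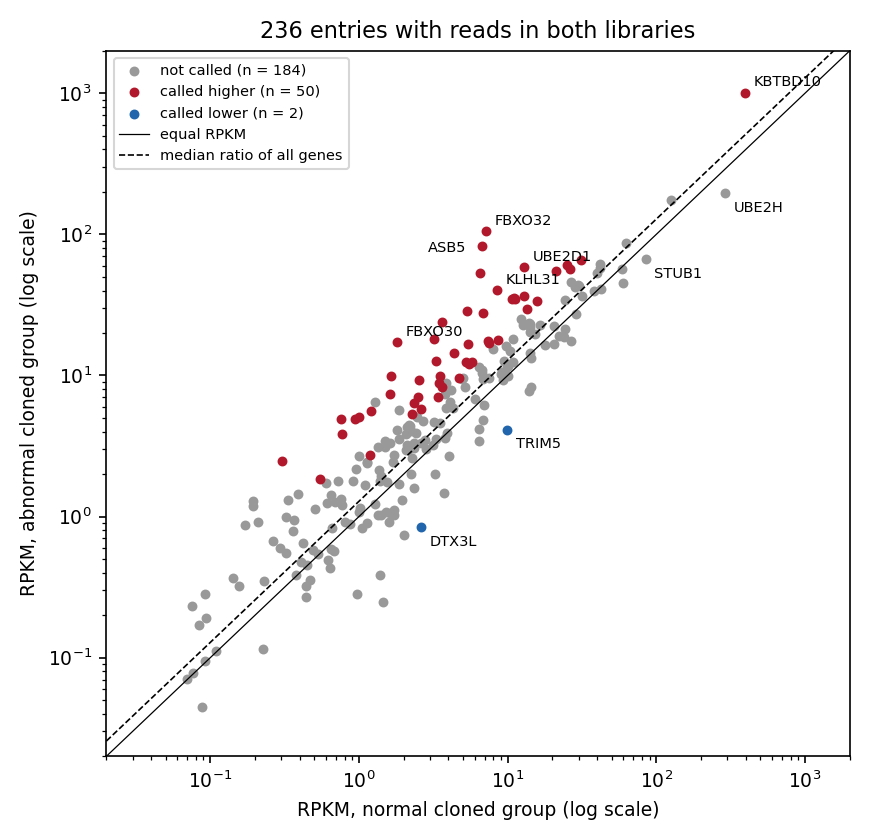
RPKM in the abnormal (vertical axis) against the normal library (horizontal axis), both on log scales, of the 236 ligase entries with reads in both libraries. Points are entries (50 red, called higher; 2 blue, called lower; 184 grey, not called), the full line marks equal RPKM and the dashed line the median ratio of all genes. FBXO32 and ASB5 lie farthest above the lines and KBTBD10 lies at the upper end, at 1010 against 398 RPKM.

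The other kelch genes of muscle were lower in level and several had larger ratios. KLHL31, a kelch protein of heart and skeletal muscle, had 488 and 106 reads, or 40.2 and 8.54 RPKM, a log2 ratio of 2.23 (1.93 to 2.54). KBTBD5 (also KLHL40), another nemaline myopathy gene, had 881 and 371 reads, or 60.7 and 25.0 RPKM, a log2 ratio of 1.28 (1.10 to 1.45). KBTBD12 had 115 and 57 reads, with a log2 ratio of 1.04 (0.59 to 1.50). After rescaling, KLHL31 was still called and KBTBD5 and KBTBD12 were not.

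Among kelch genes with wider expression, KLHL24, whose product controls the turnover of keratin, had 178 and 34 reads, with a log2 ratio of 2.42 (1.89 to 2.95). KLHL21, an adaptor of CUL3 in cell division, had 56 and 11 reads, with a log2 ratio of 2.38 (1.46 to 3.30). KLHL9, its partner in the same step, had 39 and 8 reads, with a log2 ratio of 2.32 (1.24 to 3.39). All 3 were still called after rescaling. The muscle genes KLHL33 (2 entries, log2 ratios of 0.67 and 0.64) and KLHL38 (0.45) were not called, and KBTBD13 had 3 reads in the abnormal library against 0 in the normal one, so that no difference was detectable at this depth.

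Of the cullin scaffolds, CUL1 and 1 of the CUL3 entries were called higher. CUL1, the scaffold for F-box proteins, had 172 and 55 reads, or 35.1 and 11.0 RPKM, a log2 ratio of 1.68 (1.24 to 2.11), and was called after rescaling too. CUL3, the scaffold for kelch proteins, has 2 entries that overlap on the same strand of chromosome 15, and their results differed. At chr15:118519504-118764756 it had 36.8 and 12.8 RPKM, a log2 ratio of 1.52 (1.24 to 1.79), which was called. At chr15:118595505-118650261 it had 61.4 and 41.5 RPKM, a log2 ratio of 0.56 (0.32 to 0.81), which was not called. Reads could be split between these entries, so the level of CUL3 is uncertain. CUL4A had 46.0 and 26.5 RPKM, a log2 ratio of 0.80 (0.64 to 0.95), and was not called.

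The RPKM of HECT ligases was larger in the abnormal library for 17 of 17 entries, against 66.0% of all entries. WWP1, a ligase of the NEDD4 family, had 744 reads in the abnormal library against 233 in the normal one, or 34.8 and 10.7 RPKM, a log2 ratio of 1.71 (1.49 to 1.92). UBE3A, the ligase lost in Angelman syndrome, had 235 and 86 reads, with a log2 ratio of 1.48 (1.13 to 1.84). WWP1 and UBE3A were called after rescaling as well.

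HECW2, ITCH and UBE3B lost their calls after rescaling. HECW2 had 53 and 16 reads, with a log2 ratio of 1.76 (0.96 to 2.56), and ITCH, which controls T cell activation, had 91 and 42 reads, with a log2 ratio of 1.15 (0.62 to 1.67). UBE3B, named after its value was seen, had a log2 ratio of 1.13. HUWE1, the ligase of many substrates including MCL1 and the most abundant HECT gene of the normal library, had 22.7 and 12.6 RPKM, a log2 ratio of 0.85 (0.75 to 0.96), and was not called. HECT transcripts were long, with a median of 3139 bases against 1479 for all entries, and length moved with the log2 ratio as given further on.

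The RING class was mixed and its median with 10 or more reads in each library, 0.38 over 77 entries, lay at that of all genes (0.36). Within it the UBR ligases were called higher in 5 of 5 entries, against 12.0% of all entries, a group singled out after its values were seen. Some ligases of this family recognise the N-terminal residue of a protein (the N-degron). UBR2, known from muscle wasting, had 473 and 125 reads, or 12.7 and 3.29 RPKM, a log2 ratio of 1.95 (1.67 to 2.23). UBR3 had 84 and 13 reads on a transcript of 552 bases and a log2 ratio of 2.72 (1.89 to 3.55). UBR4, UBR7 and UBR1 had log2 ratios of 1.63, 1.20 and 1.03. UBR2, UBR3 and UBR4 were called after rescaling.

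Of the other RING entries called higher, those with the largest ratios at 10 or more reads in each library were RNF41, TRIM23 and MARCH5. RNF41 (Nrdp1), which degrades the receptor ERBB3, had 172 and 31 reads, or 18.2 and 3.21 RPKM, a log2 ratio of 2.50 (1.95 to 3.05). TRIM23 had 63 and 14 reads, with a log2 ratio of 2.20 (1.38 to 3.03). MARCH5, a ligase of the mitochondrial outer membrane, had 107 and 33 reads, with a log2 ratio of 1.73 (1.17 to 2.29). These 3 kept their call after rescaling.

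In the TRIM family 3 of 31 entries (9.68%) were called higher and 1 (3.23%) lower, against 12.0% and 1.45% of all entries. The median log2 ratio of the family was 0.10. The median of the 19 TRIM entries with 10 or more reads in each library was 0.03, and after rescaling it turned to -0.33. TRIM72 (MG53), which repairs the muscle cell membrane, had 378 and 179 reads, or 56.4 and 26.2 RPKM, a log2 ratio of 1.11 (0.85 to 1.37), and its call was lost after rescaling. TRIM55 (MuRF2), a ligase at the sarcomere, had 43.6 and 29.5 RPKM, a log2 ratio of 0.56 (0.38 to 0.74), and was not called. TRIM32, mutated in a limb-girdle muscular dystrophy, had 21 and 14 reads and was not called.

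TRIM5, an antiviral factor, and DTX3L, a ligase that works with PARP9, were the entries called lower. TRIM5 had 51 reads in the abnormal library against 125 in the normal one, or 4.14 and 9.93 RPKM, a log2 ratio of -1.26 (-1.73 to -0.79). DTX3L had 13 and 41 reads, or 0.847 and 2.61 RPKM, a log2 ratio of -1.63 (-2.51 to -0.74). Both were called lower after rescaling too, when UBE2C (-0.84 before rescaling), TRIM3 (-0.90) and KLHL13 (-0.78) joined them. These 3 are named after their values were seen. The entry described as TRIM3 has the symbol ARFIP2 in the reference table, so its name is uncertain.

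The 3 RING ligases with the highest mean RPKM of both libraries were not called. STUB1 (CHIP), which ubiquitinates proteins held by chaperones, had 523 and 686 reads, or 66.3 and 85.2 RPKM, a log2 ratio of -0.36 (-0.52 to -0.20). RNF181 had 56.8 and 59.1 RPKM, a log2 ratio of -0.06 (-0.33 to 0.22), and ZFP91 had 45.5 and 59.5 RPKM, a log2 ratio of -0.39 (-0.57 to -0.21). The muscle ligases RNF123, MYLIP and PDZRN3 had log2 ratios of 0.54, 0.60 and 0.21 and were not called either; after rescaling the sign of PDZRN3 turned, to -0.15.

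Among the E2 enzymes, UBE2D1, which serves many RING ligases, had 164 and 37 reads, or 58.3 and 12.9 RPKM, a log2 ratio of 2.18 (1.67 to 2.69). UBE2E2 had 67 and 17 reads, with a log2 ratio of 2.01 (1.25 to 2.77). UBE2G1 had 492 and 195 reads, with a log2 ratio of 1.37 (1.13 to 1.61). All 3 were called after rescaling.

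The paralogs UBE2D2 and UBE2D4 were not called, with 176 and 126 RPKM and with 87.2 and 62.2 RPKM in the abnormal and normal library. Reads of such near-identical genes can be split, so the values of the UBE2D genes are uncertain. UBE2B, an E2 of muscle protein breakdown, had 74 and 37 reads, with a log2 ratio of 1.03 (0.47 to 1.60) but did not pass the FDR. This entry is described as E2 B-like, with the symbol LOC100156381 in the reference table. Its transcript of 459 bases takes up the whole of chr13:109753694-109754152, without an intron, so its name is uncertain. UBE2H was the most abundant E2, with 196 RPKM in the abnormal against 290 in the normal library, a log2 ratio of -0.56 (-0.66 to -0.47), and was not called.

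The rest of the pathway was described from lists of its genes. Of 8 E1-type enzymes, 2 were called higher and 0 lower, while 12.0% of all entries were called higher; 1 was called after rescaling and 0 after the length correction. The deposited E1 entry UBE1X, the main activator of ubiquitin, had 213 and 76 reads, with a log2 ratio of 1.52 (1.14 to 1.89), and UBA2, which activates SUMO, had 626 and 310 reads, with a log2 ratio of 1.04 (0.85 to 1.24) and a call that was lost after rescaling. The polyubiquitin gene UBB was not called, with 514 and 478 RPKM. DDB1, the adaptor of CUL4, had 100.5 and 35.1 RPKM, a log2 ratio of 1.52 (1.41 to 1.63), and was called higher, and RNF7, a RING subunit of cullin ligases, was not.

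Of 12 entries of the NEDD8 pathway and COP9 signalosome, which switch cullins on and off, 2 (16.7%) were called higher and 0 lower, near the 12.0% of all entries, and the median log2 ratio of 0.46 was near that of all entries (0.35). COPS2 was one of them, at 57.6 and 26.8 RPKM, and lost its call after rescaling. Of 22 proteasome subunits, 8 (36.4%) were called higher and 0 lower, with a median of 0.94, and 4 were called after rescaling, when 6.48% of all entries were. PSMD11, a subunit of the regulatory particle, had 161 and 47.5 RPKM, a log2 ratio of 1.76 (1.61 to 1.91).

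Transcript length moved with the log2 ratio over all genes, and less evenly in ligases. Over 5 bins of length from short to long, the median log2 ratio of all genes with 10 or more reads in each library was 0.10, 0.25, 0.32, 0.49 and 0.64, and that of the ligase entries was 0.55, 0.48, 0.48, 0.70 and 0.78. In each bin the ligase median was above that of all genes, but the share called higher was not: in the longest bin it was 26.5% of the ligase entries and 27.2% of all genes, and in the shortest 27.3% and 10.2%. With the log2 ratio corrected for length, 27 of the 50 entries were still called higher and 4 entries were called lower, against 7.39% and 2.50% of all entries. Only the log2 ratio was corrected here, and the FDR was still that of the uncorrected reads. FBXO32, with 3.71, and both ASB5 entries kept their call, but of the 6 HECT calls only WWP1 (1.09) and HECW2 (1.03) remained. HECW2 was not called after rescaling, for which the FDR was computed anew.

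**Figure D5:**
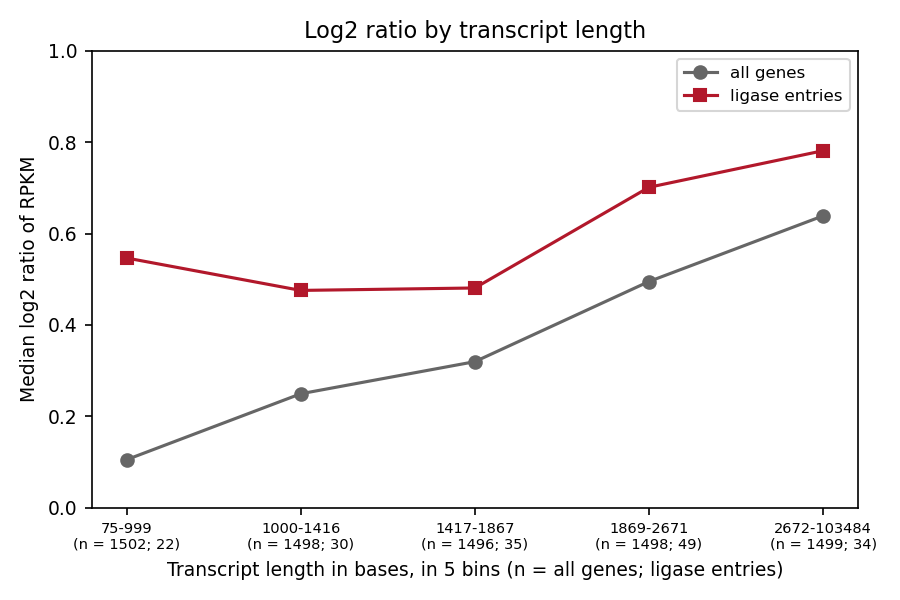
Median log2 ratio of RPKM (vertical axis) by bins of transcript length in bases (horizontal axis) for all genes with 10 or more reads in each library (grey circles) and for the 170 ligase entries among them (red squares). The number of genes and of ligase entries stands under each bin. The grey line runs from 0.10 to 0.64, and the red squares lie above it in all 5 bins.

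Coverage of the transcripts also differed between the libraries. In 435 genes with matched reads, the median share of the transcript covered by reads was 69.5% in the abnormal against 66.5% in the normal library; in the longest of 4 length groups it was 57.9% and 52.2%, and in the shortest 83.9% and 84.1%. The part of coverage and length in the ligase results was not tested.

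The makeup of the tissue was checked by markers. Of 15 markers of the muscle fibre 6 were listed, with a summed RPKM of 46285 in the abnormal against 46588 in the normal library. ACTA1 made up most of both sums, at 42258 and 37387 RPKM, so the near-equal sums do not describe the other markers. Of those, MYH1, MYH2, MYH7 and TNNC1 had a lower RPKM in the abnormal library and PYGM a higher one. MYH7 and TNNC1, of slow fibres, were called lower, at 3.12 and 35.9 RPKM and at 523 and 4728 RPKM, whereas ACTA1 and the fast myosins MYH1 and MYH2 were not called. The summed RPKM of the listed markers was 1294 and 1441 for fibroblasts (4 of 5), 44.1 and 41.8 for endothelium (4 of 5), 4.53 and 6.98 for leukocytes (5 of 5) and 29.6 and 18.7 for nerve (3 of 5). It was 480 and 693 for red blood cells (3 of 5), 0.492 and 0.218 for fat cells (3 of 5), and 0.129 and 0.183 for cardiac muscle (2 of 5). Of the 4 listed liver markers 3 were called lower, with sums of 41.5 and 63.0. In bulk RNA fewer cells of a type and less RNA per cell cannot be told apart, and the part of these differences in the ligase results was not tested.

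A call also depends on how much piglets vary, which 1 library per group cannot show. With an assumed coefficient of biological variation of 0.2, edgeR's exact test called 11 members higher and 0 lower, against 1.94% and 0.160% of all entries. Here edgeR's test used the totals of all reads, without rescaling, so the shift of the median gene remained in its results. These 11 entries were FBXO32, both ASB5 entries, FBXO30, UBR3, FBXO21, RNF41, KLHL24, KLHL31, UBE2D1 and UBR2. With an assumed variation of 0.4 no member was called, against 0.0160% of all entries higher and 0.00798% lower. An unadjusted p under 0.05 in that test and a higher level in the abnormal library were found for 21 of the 250 members. The same held for 594 of all 12535 entries.

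The entries are not all separate genes. The 250 entries bore 235 names, 13 names had more than 1 entry (28 entries), and 10 entries overlapped another member on the same strand. In 236 entries there were reads in both libraries, and 7 entries had reads in the abnormal library alone and 7 in the normal library alone, with at most 4 reads each, none of them called. In all, 64 entries had under 20 reads over both libraries and none of them was called, since the fewest reads behind a call were 27.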

How the data were processed

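Biceps femoris RNA was measured in 2 libraries, 1 per group, assigned from the sample labels. The authors used SOAPaligner/soap2 with up to 2 mismatches against the transcripts of Sscrofa9, and the deposited count is the number of unique reads per transcript, not normalized. The deposited RPKM is that count divided by transcript length and library total, and the deposited coverage is the percent of the transcript under reads. Transcripts without a read in 1 table were taken as 0.

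Entries were named from their deposited protein descriptions. Of the 250, 203 had a symbol in the reference gene table, which for 3 named another gene, and the deposited symbol of 3 MARCH entries reads as a date. The length of 1 entry differed between the tables. The members and lists were chosen with earlier results of these data known. Named genes were FBXO32, the listed muscle ligases, and in each class up to 5 called entries with the largest and up to 5 with the smallest log2 ratio at 10 or more reads in each library and the 3 most abundant by mean RPKM; others named are marked in the text. Some genes of this rule are not reported here.

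The log2 ratio of RPKM (0 set to 0.001) and the two-sided Audic-Claverie test of counts were computed for all 12535 entries, with Benjamini-Hochberg adjustment. The test was checked on simulated data that held counting error alone, without variation between piglets or a shift of scale. That check therefore covers the computation and not the error rate in these libraries. No replicate model could be fitted. Log2 ratios have 95% Wilson intervals and RPKM values exact Poisson intervals. The coverage check used genes with 20 to 200 reads whose read counts differed by at most 0.1 on the log2 scale. The alternatives were rescaling by the median ratio or TMM, totals without mitochondrial transcripts, edgeR's exact test at an assumed variation of 0.2 or 0.4, Fisher's exact test, minimum reads, stricter folds, 1 RPKM added, a correction by the running median of 501 genes ranked by length, and leaving out overlapping members. With 1 RPKM added and with the length correction only the log2 ratio changed, and the FDR stayed that of the uncorrected reads. Python 3.11.15, numpy 2.4.6, pandas 2.3.3, scipy 1.17.1, R 4.3.3 and edgeR 4.0.16 were used. Sequences, the MeDIP-seq and Q-PCR data were not analysed here.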

Additional observations from a re-analysis of the deposited data

How the results depend on the processing

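No paired analysis was possible because each group had 1 library, and for the same reason no library could be left out and neither edgeR's quasi-likelihood test nor DESeq2 was run. Fisher's exact test and the minimum of 10 reads moved no count of calls by over 1.5 times, nor did leaving out overlapping members. Rescaling by the median ratio lowered the 50 members called higher to 28 and raised the 2 called lower to 5, with a median log2 ratio of 0.28 over all members, 0.046 over F-box and 0.79 over HECT entries; calls in either direction were 5 for F-box, 3 for SOCS-box, 11 for RING (8 higher and 3 lower), 3 for HECT, 1 for E1, 1 for NEDD8 and COP9, 4 for proteasome and 14 for muscle-list entries. TMM gave 26 higher and 6 lower, against 751 and 548 of all 12535 entries. Its medians were 0.25, 0.012 and 0.75 and its calls 5, 3, 11, 3, 1, 1, 3 and 13 in that order. Totals without mitochondrial transcripts gave 34 higher and 5 lower, against 987 and 369 of all entries. The median was then 0.39, with 3 SOCS-box, 12 RING (either direction), 1 E1 and 1 NEDD8 and COP9 calls. The length correction, with the FDR left uncorrected, gave 27 higher and 4 lower, against 926 and 313 of all entries. Its medians were 0.25 for all members, 0.083 for F-box, 0.075 for RING and 0.65 for HECT entries. Calls were 5 for F-box, 10 for RING (either direction), 2 for HECT, 0 for E1 and 0 for the cullin adaptors. They were 1 for NEDD8 and COP9, 5 for proteasome and 14 for muscle-list entries.

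edgeR's exact test with an assumed variation of 0.2, on the totals of all reads without rescaling, gave 11 higher and 0 lower. At an unadjusted p under 0.05 it gave 63 and 2 members, against 2047 and 345 of all 12535 entries. The calls were 3 F-box, 2 SOCS-box, 2 kelch, 0 cullin, 3 RING, 0 HECT and 1 E2. There were also 0 E1, 0 cullin adaptor, 0 NEDD8 and COP9, 1 proteasome and 8 muscle-list calls. With 0.4 all of these calls were 0. At an unadjusted p under 0.05, 21 members were then higher and 0 lower, against 594 and 68 of all entries. A log2 ratio of at least 2 left 18 higher and 0 lower, against 415 and 42 of all entries. The calls were 5 F-box, 2 SOCS-box, 4 kelch, 0 cullin, 5 RING and 0 HECT. There were also 0 E1, 0 cullin adaptor, 0 NEDD8 and COP9, 1 proteasome and 8 muscle-list calls. Adding 1 RPKM left 1 member called lower, against 152 of all entries, and gave medians of 0.40 for all members and 0.80 for HECT entries. Fold alone at 10 or more reads gave 5 E2 calls. Of the 3 most abundant F-box genes by mean RPKM, 1 was among the top 3 of the normal library. Of the named genes, FBXO9 changed sign to -0.23 (median ratio), -0.27 (TMM), -0.12 (without mitochondrial transcripts) and -0.36 (length), PDZRN3 to -0.15, -0.18, -0.038 and -0.25 in that order, and RNF123 to -0.18 and ASB2 to -0.066 with the length correction; none of them was called. The cause of these changes was not tested beyond what each alternative does to the scale or the threshold. The depth, 3 reads for 0.470 and 0.460 RPM, limits the 64 members with under 20 reads.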
